A study of Mus musculus with 4 samples.

Results

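Very wide accessible regions were examined in the aorta of control mice and of mice with a dominant Col3a1 missense allele that models vascular Ehlers-Danlos syndrome (VEDS). The regions were chosen by measured peak widths. A region was taken when its VEDS male peak lay on an autosome and spanned at least 1000 bp, when it shared at least 1 bp with a control female peak of at least 500 bp, and when at most 50% of its bases were masked as repeats. The rule gave 158 regions out of 41444 VEDS male peaks, and out of 64360 peaks in the 4 lists together. Control mice were Col3a1+/+ and VEDS mice were Col3a1G938D/+, both on C57BL/6J and 60 days old, and neither group was treated. Each genotype had 1 female and 1 male library, and every library combined aortic tissue of 2 mice, so no library is a single animal. Nuclei came from minced aorta, and the barcoded libraries were read in aggregate over all cell types.

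The VEDS male list held 41444 peaks and the control female list 21176, whereas the control male and VEDS female lists held 1236 and 504. The long lists therefore differ in genotype, sex and library at once, and these cannot be told apart; the widths that chose the regions are used only as a description. Of 8 smooth muscle markers, 7 had a peak over their start in both long lists (the exception was Mylk), and the 7 immune and 6 fibroblast markers had none in either. Of the 7 adipocyte markers, 3 (Fabp4, Pparg and Cidea) had a peak in VEDS male and none in control female. For endothelial markers these counts were 1 and 0 of 8, for striated muscle 2 and 1 of 6, and for Schwann cells 1 and 1 of 3. A longer fixed list of 11 adventitial fibroblast genes had 4 with a VEDS male peak. The part of cell makeup in the widths was not tested. With 2 libraries per genotype the smallest exact permutation p, two-sided, is 0.333, so no test between genotypes was made.

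ATAC-seq marks DNA that the Tn5 transposase can reach, and a peak is a stretch where its cuts pile up above the local background. At most active promoters this stretch is the nucleosome-depleted gap just upstream of the start of transcription. Longer stretches are known where 2 genes start back to back, where several regulatory sites lie side by side, and where reads of many sequence copies are assigned to a few places in the reference genome. Imprinted genes, which are active from only 1 parental copy, carry control regions that are reachable on 1 allele.

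The regions fell into 3 kinds of sequence, a division made after their values were seen. A gene start lay inside 88 regions. Of the other 70, 23 were repeated sequence, in which at least 50% of the 24-mers occurred more than once in the reference genome, and 47 were single-copy sequence. The sequences that follow are mm10 reference, read 5′ to 3′ on the strand of the match. The first set shows what regulatory motifs in the promoters and the single-copy regions look like: for each motif, the match comes from the single-copy region of highest −log10 q whose match in the 300-bp window on the summit lay outside exons, and it is in capitals.

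AP-1, 7421 bp from the start of Apol6, chr15:77036775-77036831, plus strand: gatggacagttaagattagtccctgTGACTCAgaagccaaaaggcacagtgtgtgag
MEF2, 197621 bp from the start of Gm48791, chr12:9979202-9979261, plus strand: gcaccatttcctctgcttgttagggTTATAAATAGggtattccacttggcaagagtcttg
TEAD, promoter of Tmed1, chr9:21510261-21510317, plus strand: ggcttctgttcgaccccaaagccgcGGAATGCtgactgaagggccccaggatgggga
NRF1, promoter of Rap2a, chr14:120477525-120477584, plus strand: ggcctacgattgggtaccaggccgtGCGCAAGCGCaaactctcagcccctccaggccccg
YY1, shared promoter of Cbx5 and Hnrnpa1, chr15:103240007-103240065, minus strand: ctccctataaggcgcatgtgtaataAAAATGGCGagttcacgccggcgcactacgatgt
ETS, promoter of Cic, chr7:25268239-25268295, plus strand: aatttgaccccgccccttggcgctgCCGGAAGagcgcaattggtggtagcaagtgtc
CRE, promoter of Rnf44, chr13:54688292-54688349, plus strand: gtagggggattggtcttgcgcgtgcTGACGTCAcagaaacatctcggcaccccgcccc

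The second set shows 1 unit of 3 tandem arrays. The first 2 are among the widest and lie near Stk38l and Cacnb4. The third lies in an intron, and the nearest gene start is that of Fbln5, a gene of elastic fibre assembly. Over the whole regions, 98.9%, 96.8% and 70.6% of bases were equal 1 unit apart. For each unit shown, the unit next to it in the reference is the same in every base.

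Stk38l array, 83-bp unit, chr6:146712841-146712923: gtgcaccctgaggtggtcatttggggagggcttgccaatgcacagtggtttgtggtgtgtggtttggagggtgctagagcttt
Cacnb4 array, 54-bp unit, chr2:52696663-52696716: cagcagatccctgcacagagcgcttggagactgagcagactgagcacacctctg
Fbln5 array, 59-bp unit, chr12:101840004-101840062: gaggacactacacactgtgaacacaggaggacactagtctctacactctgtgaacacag

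Widths described the selection itself. The VEDS male peaks of the 158 regions ranged from 1000 to 7783 bp with a median of 1129.5 bp, against 288 bp over the 38509 autosomal VEDS male peaks with at most 50% masked bases. The widest was the repeated stretch near Ahnak2. Other wide ones were repeated sequence near Smgc (3743 bp in VEDS male, 2798 bp in control female), Gm10097 (1930 and 798 bp) and Gm41349 (2861 and 1824 bp), the last wholly coding sequence. In all, 25 regions reached 1500 bp. At the lower limit lay Odr4, Itsn1 and Zfp78 at 1000 bp, and just under it Mtmr3 and Rtn4 at 999 bp and Matr3 at 997 bp. The widest overlapping control female peak was narrower than the VEDS male peak in 154 of 158 regions and reached 1000 bp in 40. Control female peaks covered 73.4% of a region at the median, and 100% of a region 31184 bp from Gm49030. Regions with little cover included Gm10435 at 42.2%, Plin4 at 43.5%, Tubb4b at 43.8% and Ggn at 43.9%. A single control female peak overlapped 136 regions, 2 peaks overlapped 19 and 3 or more overlapped 3. Another 191 VEDS male peaks were as wide and as little masked but had no control female peak of 500 bp, and 129 more met both widths but were over 50% masked.

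**Figure D1:**
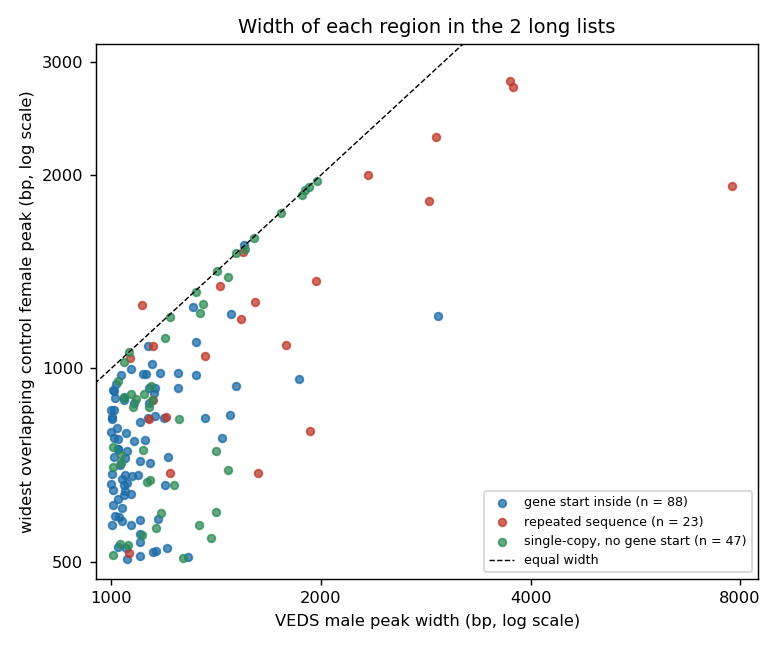
Width in bp of each region in the VEDS male list (x axis) and of the widest control female peak over it (y axis), both on log scales, with 1 point per region coloured by kind. Points lie below the dashed line of equal width in 154 of 158 regions, and a row of single-copy regions (green) lies on it between 1061 and 1972 bp.

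Height and width did not go together in a simple way. The estimated number of fragments over the VEDS male summit was 63 at the median, from 9 to 745, against 23 over all VEDS male peaks. Ranked by −log10 q, 1 of the 100 highest VEDS male peaks was a wide region, beside 158 of all 38509. The median width of those 100 was 529.5 bp. Wide regions made up 2.43% of the 987 peaks ranked from just after 1000 to 2000 and 0.0984% of the 19317 ranked below 20000. The control female fragments were 25.5 at the median. The ratio of VEDS male to control female fragments was 2.40 at the median, beside 2.46 over the 18747 VEDS male peaks that overlap a control female peak. The 2 summits lay 71 bp apart at the median and at most 10 bp apart in 38 regions, whereas 34 regions had summits more than 300 bp apart. After the array near Tmem125, the highest −log10 q values were those of the promoters of 4932412D23Rik (93.5 in VEDS male, 31.4 in control female), Tmem87b (90.5 and 31.8), Cic (87.5 and 41.02), Sec16a (87.5 and 34.2) and Skap2 (86.8 and 35.7).

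Gene starts lay inside 88 of the 158 regions, or 55.7% (95% Wilson interval 47.9 to 63.2%, for counting error only), against a background of 26% of VEDS male peaks. The share was 41.4% in the 191 peaks that were wide in VEDS male alone. A longer peak has more room for a start, so this share is not independent of width. The direction turned with stricter limits: the share was 17.5% of the 40 regions with a control female peak of 1000 bp and 16% of the 25 regions of 1500 bp or more. Without repeated sequence and coinciding edges, both described further on, it was 72.6% of 117. A start of a protein-coding gene lay inside 84 of the 88, or 95.5%, against 94.8% of VEDS male peaks with a start. The 88 wide promoters extended 697.5 bp upstream and 452 bp downstream of the start at the median. Over all 10022 VEDS male peaks with a start the values were 231 and 172 bp. The upstream arm was the longer one in 61 of 88 regions, or 69.3%, against 62.0% over all peaks with a start. The VEDS male summit lay within 100 bp of the start in 36 of 88 regions, or 40.9%, against 75.1%, so the highest point of a wide promoter was often away from the start that was used to place it.

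**Figure D2:**
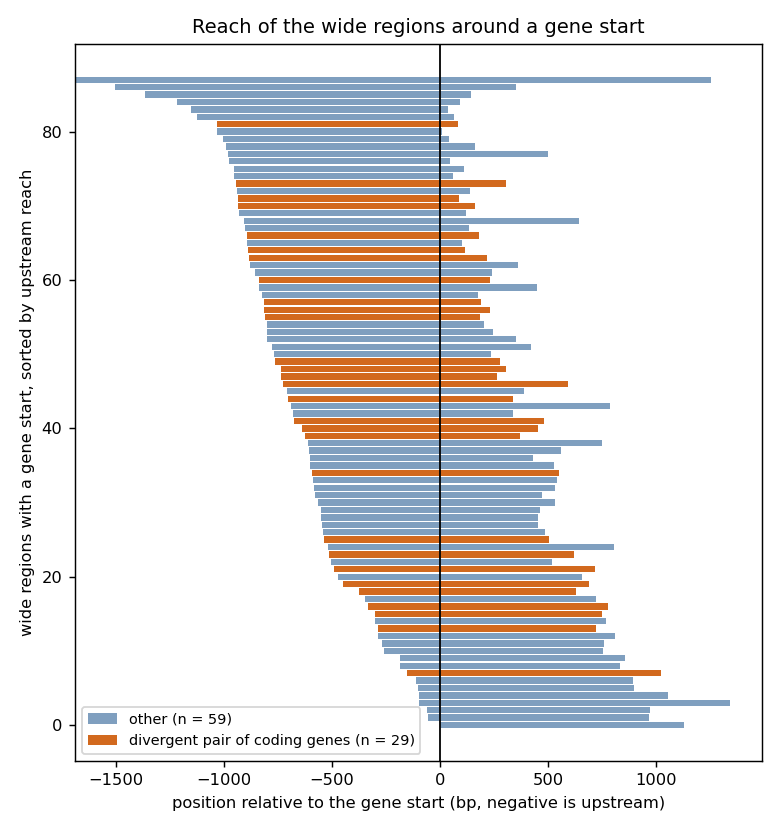
Extent of the 88 regions with a gene start, 1 bar per region, in bp upstream (negative) and downstream of the start, sorted by upstream reach; bars in orange hold a divergent pair of coding genes. Most bars reach farther upstream than downstream (61 of 88), and the longest upstream reach is 1690 bp.

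Back-to-back genes were frequent among these promoters. A divergent pair of coding genes started inside 29 of the 88, or 33.0% (95% Wilson interval 24.0 to 43.3%), against a background of 7.5% of VEDS male peaks with a start. Among peaks wide in VEDS male only it was 14 of the 79 with a start, or 17.7% (10.9 to 27.6%). A wide peak has more room for a second start, so the share is not independent of width. The starts of a pair were 302 bp apart at the median, from 60 bp for Tbcb, a tubulin folding cofactor, and Polr2i, a subunit of RNA polymerase II, to 805 bp for Tst and Mpst, both sulfurtransferases. The Polr2i region was 1053 bp wide in VEDS male and 662 bp in control female, with 101 and 31 fragments. The region of Hsp90b1, an endoplasmic reticulum chaperone, and Ttc41 was 1137 bp wide in VEDS male and 711 bp in control female. Several pairs included genes of RNA processing: Cbx5 with Hnrnpa1 (616 bp between starts), Ttc9c with Hnrnpul2 (677 bp), Ddx5 with Cep95 (720 bp) and Srsf2 with Mfsd11 (726 bp). Hnrnpa1 and Hnrnpul2 encode RNA-binding proteins, Ddx5 an RNA helicase and Srsf2 a splicing factor. Over the Cbx5 region 2 control female peaks took the place of 1 VEDS male peak, and their outer edges lay within 2 bp of it.

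Promoters with a single coding gene included those of general regulators. Polr2a, which encodes the largest subunit of RNA polymerase II, had a 1486-bp region in VEDS male and a 1216-bp peak in control female. Tef, a PAR bZIP factor of the circadian clock, had widths of 1309 and 1245 bp, reaching 1217 bp upstream of the start used here. Introns held 93.0% of the bases of that region and intergenic sequence 0%, so its upstream part lay within an annotated transcript. Setd5, a SET-domain protein of chromatin, had 1511 and 938 bp, and its region also held the start of the noncoding Gt(ROSA)26Sor. Fosl2, an AP-1 subunit, had 1048 and 794 bp. The widest region with a start, at Ppp2r3d, spanned 2945 bp in VEDS male and 1205 bp in control female. Camk2d, the calcium/calmodulin kinase of cardiac and smooth muscle, had 1288 bp in VEDS male, and of its 2 control female peaks the wider spanned 508 bp.

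Wide regions over the starts of listed genes were read against all genes: of the 11213 genes with a VEDS male peak over a start, 132 had a wide region there, a background of 1.18%. At that share, few are to be found in lists of this size. None of the 27 genes of the smooth muscle contractile list had a wide region over its start, although 24 of them had some VEDS male peak there, with a median width of 507 bp for the widest. Myl9, a myosin light chain, came nearest with 1118 bp in VEDS male, but its control female peak was 452 bp and so below the limit. The 25 smooth muscle and vascular regulators had none, with 17 peaks over a start, and the 17 Notch genes had none, with 9. None of 34 collagen and matrix genes, 15 integrins, 23 TGF-beta genes or 35 immediate-early and stress genes had one, with 25, 15, 18 and 32 genes that had a VEDS male peak over a start. The 79 ribosomal protein genes had none either, with 71 peaks over a start. A wide region lay over a start in 3 of 24 RNA processing genes (Ddx5, Hnrnpa1, Srsf2), 1 of 13 AP-1 genes (Fosl2) and 1 of 18 clock genes (Tef), of which 22, 10 and 16 had a VEDS male peak over a start. These counts were not tested, and no difference between lists is drawn from them. Away from starts, the nearest gene of a wide region was Pdlim7, Fos, Fbln5, Itga8, Tead1 or Mbnl1 among the genes of the lists. The lists of YAP and TEAD genes, steroid receptors, endothelial, fibroblast, immune, adipocyte, striated muscle and Schwann cell genes, Hox genes, histones, and translation and heat shock factors had no wide region at a start.

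Base composition followed the kind of region. The median GC content was 61.3% in the 88 regions with a start, 55.6% in repeated sequence and 51.4% in single-copy sequence without a start. The CpG observed/expected ratio, which is near 1 in DNA that keeps its CpGs and low in methylated bulk DNA, had medians of 0.80, 0.22 and 0.21. Over all VEDS male peaks the corresponding medians were 63.7% and 0.79 with a start and 51.5% and 0.25 without one, so the wide promoters had a similar CpG ratio and a slightly lower GC content than promoter peaks in general. The ratio reached 0.6, a customary limit for a CpG island, in 81 of the 88 regions with a start, or 92.0% (Wilson interval 84.5 to 96.1%). Over all VEDS male peaks with a start the share was 82.1%, so a ratio this high was common to promoter peaks in general. It was also reached in 9 of the 47 single-copy regions without a start, or 19.1% (10.4 to 32.5%). The share over all peaks without a start was 11.1%, which lies inside that interval.

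**Figure D3:**
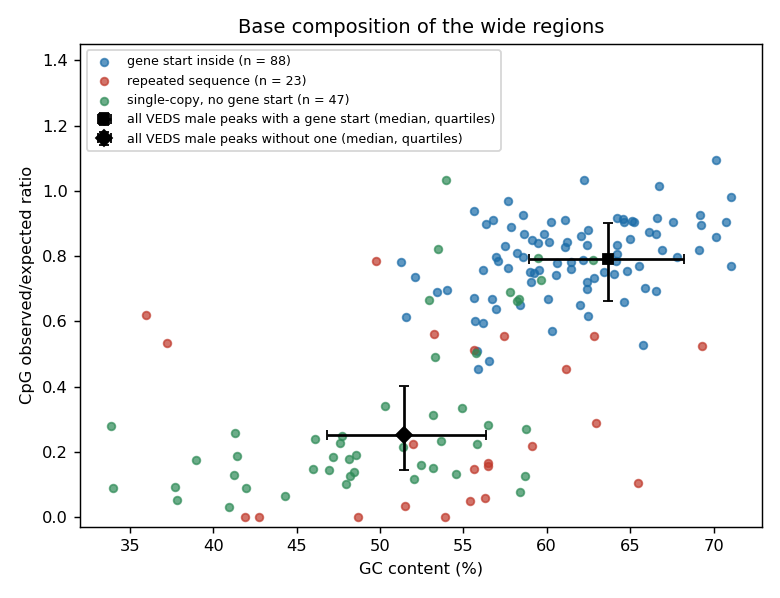
GC content in percent (x axis) and CpG observed/expected ratio (y axis) of each wide region, 1 point per region coloured by kind, with medians and quartiles of all VEDS male peaks with (square) and without (diamond) a gene start in black. Regions with a start lie around the square, with a median ratio of 0.80, and most of the others lie below 0.6.

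Of those 9 CpG-rich regions, some lay beside a start without covering it. The region at Sp1, a GC-box binding factor, lay 6 bp from the listed start and was 1023 bp wide in VEDS male and 956 bp in control female, with 121 and 55 fragments. The region at Fbrs lay 158 bp from the start, with widths of 1355 and 1261 bp. Their annotation as regions without a start therefore rests on the annotated position.

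Imprinted genes gave a pair of intronic regions that stood within 2000 bp of a start, named after their values were seen. Peg3, a zinc finger gene active from the paternal copy, had a 1470-bp region 1494 bp from its start, covered to 91.6% by control female peaks, with 72 fragments in VEDS male and 24 in control female. The control male list had a 309-bp peak there. This region held 6 matches to the YY1 motif, more than any other of the 38509 VEDS male peaks, of which 2.78% had a match anywhere. The next wide region had 2. The Peg3 control region is known for clustered YY1 sites. A 200-bp stretch with 2 of the 6 is shown with the matches in capitals.

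Peg3 intron, chr7:6727783-6727982, plus strand: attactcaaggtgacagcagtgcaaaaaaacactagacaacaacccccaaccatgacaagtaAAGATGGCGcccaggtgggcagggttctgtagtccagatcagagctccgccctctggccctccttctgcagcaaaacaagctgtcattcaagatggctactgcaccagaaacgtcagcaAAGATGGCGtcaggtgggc

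Impact, also imprinted, had a region of the same width, 1470 bp, that lay 1155 bp from its start within an intron, with a CpG ratio of 0.79. The strongest control female peak there was 695 bp wide, and the fragments were 54 and 27.

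The 47 single-copy regions without a start had a median width of 1180 bp in VEDS male and lay 17802 bp from the nearest gene start at the median. Introns held 45.7% of their bases and intergenic sequence 52.4%, against 53.8% and 40.6% over all VEDS male peaks without a start. For those peaks the median distance to a start was 16555 bp. Some are named here for a gene nearby, and no share of such genes was compared with other peaks. An intronic region of Pdlim7, a PDZ and LIM protein bound to actin, was 1086 bp wide in VEDS male and 896 bp in control female, with 90 and 32 fragments, 1680 bp from the start. A region 23333 bp from Itga8, the integrin alpha 8 chain of smooth muscle, was 1075 and 871 bp wide, with 48 and 20 fragments, and the VEDS female list had a 312-bp peak there. A region 17802 bp from Fos, the immediate-early AP-1 subunit, was 1124 and 666 bp wide, with 88 and 34 fragments. A region of Limch1, an activator of non-muscle myosin II, spanned 1338 bp 48869 bp from the start. Mbnl1, a splicing regulator of muscle, had a 1139-bp region 63549 bp away, and its 2 summits coincided. A divergent promoter region of 1144 bp lay at Sesn1, a stress-induced sestrin. Sesn1 also had the nearest start, 47093 bp away, to a 1004-bp region that lay in an intron. No gene was nearest to 3 or more wide regions.

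Some regions began and ended at the same bases in both long lists. Their outer edges differed by at most 25 bp at each end in 20 of 158 regions, or 12.7% (95% Wilson interval 8.35 to 18.7%), against a background of 8.5% of the 1517 VEDS male peaks with at least 500 bp in both lists. These 20 were unevenly spread: 15 of 47 single-copy regions without a start had such edges, 3 of 23 repeated regions and 2 of 88 with a start. Among single-copy regions, coinciding edges were found in 13 of the 14 with fewer than 30 fragments at the VEDS male summit, against 4 of the 120 with 30 or more. Over all single-copy peaks of 500 bp in both lists the shares were 21.7% of 83 and 7.502% of 1373. The limits of 25 bp and 30 fragments were set after the values were seen.

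These 13 regions were alike in other ways. They were 1061 to 1972 bp wide, at least 98.7% of each was covered by control female peaks, and no edge differed by more than 12 bp. The VEDS male fragments were 9 to 29 and the control female fragments 6 to 12, over an estimated background of 1.32 to 1.59 fragments, near the lowest value of any VEDS male peak, 1.32. Of the 13, 12 had no gene start, beside 28487 of the 38509 VEDS male peaks. None had a peak in either short list, against 1.59% of VEDS male peaks with one. The absence of such a peak was thus common to VEDS male peaks in general. The region near Ostf1 was the widest, 1972 bp in VEDS male and 1958 bp in control female, with 12 and 6 fragments, 258782 bp from the start. A region 648487 bp from Flrt2 was 1897 and 1893 bp wide, with starts and ends that differed by 2 bp. A region of an intron near Gm49030 had exactly the same ends in both lists, at 1061 bp. The summits of the same regions did not coincide: they were 784 bp apart near Flrt2 and 294 bp apart near Gm49030. Vstm2a was the one with a start, with 1552 and 1556 bp. The cause of these shared edges was not tested.

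**Figure D4:**
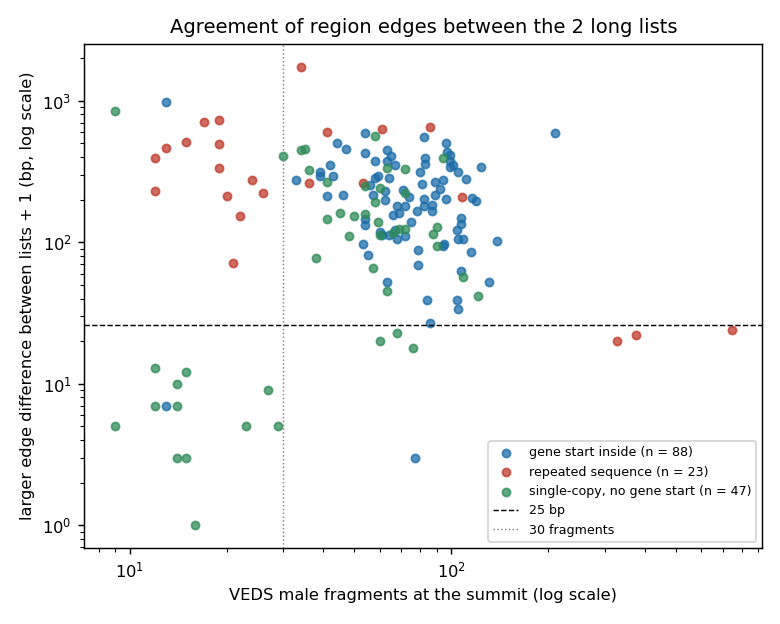
Estimated VEDS male fragments at the summit (x axis, log scale) and the larger of the 2 edge differences between the long lists plus 1 bp (y axis, log scale), 1 point per wide region coloured by kind. The cluster at the lower left holds 13 single-copy regions, 1 of them with a gene start, with 9 to 29 fragments and edges within 12 bp.

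Repeated sequence made up 23 regions without a start, and the Flg region, which overlapped a start, also passed the 24-mer limit, giving 24 of 158, or 15.2%, against a background of 2.48% of VEDS male peaks. Among the 191 peaks wide in VEDS male only it was 34, or 17.8%. The masking limit of the rule did not remove them. In 20 of the 24, at least 50% of the 24-mers recurred inside the region itself, and 17 were tandem arrays with at least 70% equal bases 1 unit apart, with units of 16 to 519 bp and a median of 61 bp. The Ahnak2 region of 7783 bp had a unit of 519 bp, and the widest control female peak over it was 1926 bp. The Stk38l array of 3778 bp held 45.5 copies of the 83-bp unit shown above, with 26 and 14 fragments. The array of 2335 bp nearest the Cacnb4 start lay in an intron, 19832 bp from that start. It held 43.2 copies of its 54-bp unit, with 53 and 18 fragments. The array nearest the Fbln5 start lay in an intron of an annotated transcript, 20844 bp from that start. It was 1965 bp wide in VEDS male and 1369 bp in control female, and had only 15 and 9 fragments. An array whose nearest start was that of Tead1, a YAP partner, lay in an intron 40316 bp from that start. It was 1780 and 1087 bp wide, with 17 VEDS male fragments. How many copies these mice carry is not known from these data, and its part in the widths was not tested.

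The 2 regions nearest Col19a1, a collagen gene 24147 and 25741 bp away, were another kind of copy: all their 24-mers also occurred in the mitochondrial genome. They were 1064 and 2924 bp wide, 530 bp apart, with 327 and 376 fragments over a background of 111 fragments and folds of 2.92 and 3.35. The highest wide region of all was a 1546-bp array of 44-bp units 3456 bp from Tmem125, with 745 fragments in VEDS male and 296 in control female. Its fold over background was 28.2 and 27.9, and it ranked 14 of the VEDS male peaks by −log10 q. The Gm26917 region, with a start and with 24-mers that are single-copy in the reference genome, had a similarly high background of 98.9 fragments and a fold of 2.12. How many copies of it these mice carry is not known from these data.

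The short lists gave a measure that the rule had not used. A control male peak overlapped 34 of the 158 regions, or 21.5%, against a background of 0.893% of VEDS male peaks. A VEDS female peak overlapped 24, or 15.2%, against 0.88%. Either short list had a peak in 49 regions, or 31.0% (95% Wilson interval 24.3 to 38.6%), against 1.59%. Among the 191 peaks wide in VEDS male only, the share was 9.42%. Wide regions offer more bases for an overlap and were higher than most peaks, so the shares do not compare peaks of like size. By kind, either list had a peak in 28 of 88 regions with a start, 12 of 23 repeated regions and 9 of 47 single-copy regions. Over all VEDS male peaks the share was 3.57% with a start and 0.899% without one. The repeated regions were met mostly by control male peaks, 12 of 23, and by VEDS female peaks in 2. The control male list was the longer short list, with 1236 peaks to the 504 of VEDS female. It had over 50% masked bases in 69.3% of its peaks, against 28.1% in VEDS female and 5.10% in VEDS male.

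All 4 lists had a peak in 9 regions, or 5.70% of 158, against a background of 0.179%. They were the array near Tmem125, an intergenic repeated region 51070 bp from the start of Pdia4, and the region at Sp1. The others were the promoters of Jkamp with L3hypdh, Zfp788, Cic, Agbl5, Hdlbp with Sept2, and Zfp78. Cic, a transcriptional repressor acting downstream of receptor tyrosine kinases, had peaks of 1068 bp in VEDS male, 998 bp in control female, 304 bp in control male and 373 bp in VEDS female, with folds of 11.1, 11.04, 7.71 and 5.47. Zfp78, a zinc finger gene, had 1000, 861, 753 and 646 bp. Near Tmem125 the widths were 1546, 1516, 1485 and 1326 bp, so this array was wide in every library. In the repeated region whose nearest gene is Pdia4 they were 1536, 1192, 2234 and 1664 bp, and the short lists had the wider peaks.

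Motifs were counted in 300-bp windows centred on the VEDS male summit, on both strands. The CCAAT box, searched as CCAATNA and CCAATNG, is bound by NF-Y. It was present in 46.6% of 88 windows with a start (95% Wilson interval 36.5 to 56.9%), against 31.0% of 10022. NRF1, an activator of nuclear genes for mitochondrial proteins, had its palindromic motif in 20.5% (13.3 to 30.03%) against 12.04%. YY1, searched as AANATGGCG, was present in 11.4% (6.29 to 19.7%) against 6.43%. ETS, searched as CCGGAAG, was present in 12.5% (7.13 to 21.0%) against 20.5%. The GC box of SP and KLF factors, GGGGCGGGG, had the same share in both, 23.9% and 24.0%, and CRE, searched as TGACGTCA, had 4.55% and 4.15%. The intervals of CCAAT and NRF1 lay above the value over all promoter peaks, whereas those of YY1 and ETS included it.

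Among the 47 single-copy windows without a start, AP-1 (TGACTCA or TGAGTCA) was present in 8, or 17.02% (8.89 to 30.1%), against 15.04% of the 28487 VEDS male peaks without a start. The 8 included the regions of Apol6, Pdlim7, Itga8, Peg3 and Mtus2. TEAD, searched as GGAATGC and GGAATGT, was also present in 8, or 17.02%, against 13.1%. The SRF motif (CArG box) was present in 3, or 6.38%, at Mbnl1, Arpc2 and Gm44699, against 3.79%. MEF2 was present in 2, or 4.26%, against 7.72%. All 4 intervals included the share over all peaks without a start. No window held a match to the motifs of CTCF, NFI and the steroid receptors. For the 88 windows with a start this allows a share of up to 4.18%, and all VEDS male peaks with a start had 1.06%, 0.00998% and 0.120%. For the 70 without one it allows up to 5.20%, and all peaks without a start had 4.04%, 0.0772% and 0.818%, so no difference was detectable at this number of regions. RUNX, searched as TGTGGTT, was present in 4.26% of the 47 single-copy windows, against 6.09% of all peaks without a start. In the 88 windows with a start its share was 4.55% against 2.84%. Over all 158 regions it was 5.70%, against 5.25% of all VEDS male peaks. A CArG match can hold a CCAAT match, as it did at Tmem87b, and is then counted in both.

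**Figure D5:**
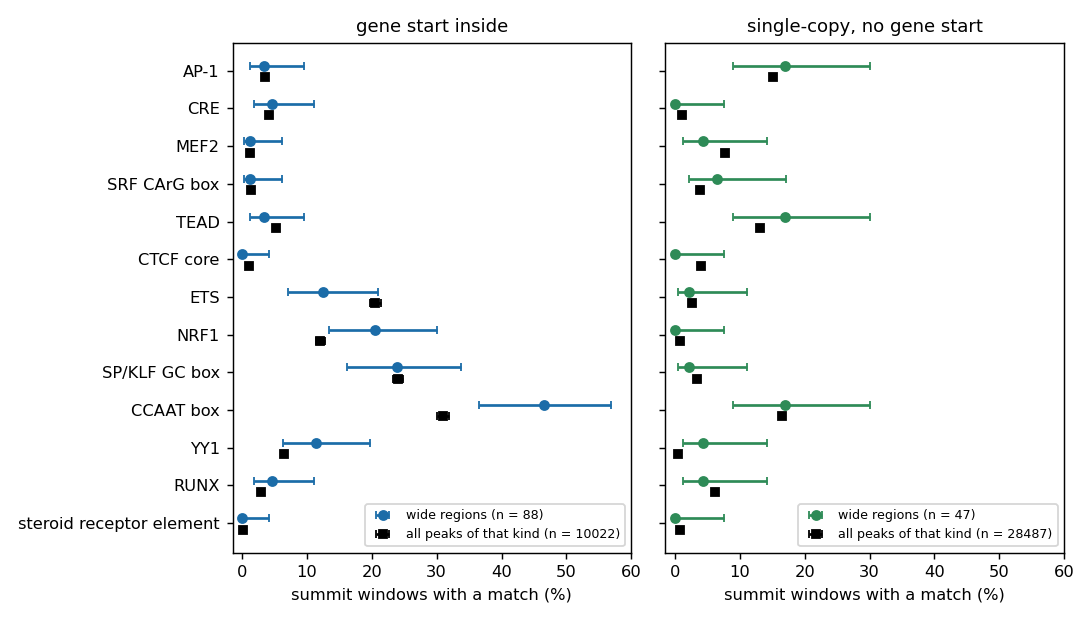
Percent of 300-bp summit windows with a motif match (x axis) for wide regions (coloured circles) and all VEDS male peaks of the same kind (black squares), with 95% Wilson intervals; left, windows of regions with a gene start, right, single-copy regions without one. CCAAT and NRF1 stand to the right of the black squares on the left side, at 46.6% and 20.5%, and ETS to the left of it at 12.5%.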

How the data were processed

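Nuclei of aortic tissue were taken through a droplet single-cell ATAC workflow and the data were used in aggregate, 1 peak list per library, with 2 libraries per genotype. The authors aligned reads to mm10 (aligner not given in the sources used here), removed duplicates by barcode, corrected for the Tn5 cut offset, called narrow peaks with MACS2 and removed blacklisted regions. In the deposited lists the score is, for nearly all peaks, 10 times −log10 q as a whole number, the fold is a ratio of the summit to the local background, and p and q are deposited as −log10 values by the authors. Width in such lists moves with depth; no read totals are given.

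Groups came from the sample labels. The members and lists were chosen with earlier results of these data known. Bases, repeats and 24-mers were read from RefSeq's GRCm38.p6, whose lower case stands for masking and may differ slightly from other copies of mm10. The 24-mers of a region, taken every 10 bp, were searched in 66 reference sequences on both strands. Genes are GENCODE vM21 (basic set), and a gene start is the start of a transcript of a coding or long noncoding gene; other gene types were not used. Fragments at the summit and the local background were solved from the fold and −log10 p of each peak under the Poisson model of MACS2, a whole number found for over 99% of peaks; 100% of 500 simulated peaks were recovered. Edges of a region in control female are the outermost edges of the overlapping peaks. Regions without a start carry the name of the gene with the nearest start, and an intron there may belong to another gene. Named regions were the widest, the highest, the farthest from a start, the least and most covered by control female, those next to the width limit, those in all lists and those near the genes of fixed lists; any others were named after their values were seen. Python 3.11.15, numpy 2.4.6, pandas 2.3.3, scipy 1.17.1, pysam 0.24.0 and numba 0.67.0 were used. Wilson intervals are at 95%. The alternatives changed the width limits, overlap, −log10 q, masking, which list sets the width, list length, the short libraries and the motif windows. One region is not reported here by name.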

Additional observations from a re-analysis of the deposited data

How the results depend on the processing

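The number of wide regions was 158. It became 494 with a width of 800 bp, 25 with 1500 bp, 40 with a control female width of 1000 bp, 287 with no limit on masked bases and 45 when the control female list set the width. In that order, leaving out 800 bp, the share with a gene start was 16%, 17.5%, 32.1% and 20%, and it was 67.5% at a −log10 q of at least 10 in both lists, 64.9% without repeated sequence and 72.6% without repeated sequence and coinciding edges, the last 2 chosen after seeing the data. The share stood below the 26% of all VEDS male peaks under the width limits of 1500 bp and 1000 bp and with the width set by the control female list. Under these 3 limits the median covered share was 85.6%, 93.3% and 100%, the median GC content 53.2%, 53.3% and 54.2%, and the median CpG ratio 0.216, 0.219 and 0.245. The CpG ratio was 0.478 with no limit on masked bases and 0.758 without repeated sequence and coinciding edges, with 59.2% GC. Either short list had a peak in 46.7% with no limit on masked bases, and in 15.2% to 21.5% with one short library left out. Over the summit windows of all 158 regions, MEF2 fell from 1.90% to 0.633% in windows of 200 bp. Over the same regions ETS rose from 7.59% to 13.9% in windows of 500 bp. With the width set by control female the median widths were 1486 bp in VEDS male and 1306 bp in control female. The cause was not tested. Of 122 values under alternatives, 91 stayed within the counting interval or 1.5 times the number. No paired analysis was possible because the results are counts and shares within single lists and come from no test, and the 2 libraries that share a sex with a long list hold few peaks. Width, and so membership, depends on the depth of each library, which the lists do not give.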
